A study of Mus musculus with 8 samples.

Results

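Cdkn1a and 5 further target genes of the tumour suppressor p53 (Mdm2, Ccng1, Trp53inp1, Phlda3 and Bax) were followed in fibro/adipogenic progenitors (FAPs), the PDGFRα-bearing stromal cells of skeletal muscle. The 6 genes were taken by symbol from the 31053 genes of the files. They were chosen by their place in the p53 pathway and with the lower knockout level of Cdkn1a already known, so their levels in the 2 libraries are a description with no test. Cells were barcodes with at least 500 genes, at most 10% mitochondrial UMIs (unique molecular identifiers, 1 for each captured transcript) and at least 1 UMI of Pdgfra. This kept 1435 of 1724 barcodes from dysferlin knockout muscle and 1533 of 2073 from wild type muscle.

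The knockout mice lack dysferlin, a membrane repair protein of muscle fibres whose loss causes a muscular dystrophy; their strain is labelled BLA/J, and B6A/J in the protocol. The wild type mice were C57BL/6. All were females of 8 months, and live PDGFRα-positive cells were sorted from several hindlimb muscles for droplet sequencing of transcript 3′ ends. Each group has 4 labelled samples but 1 pooled matrix, with nothing that maps cells to samples, so each group counts as 1 library: no test between groups was possible, and what comes from genotype, from strain or from library preparation cannot be told apart. All intervals are 95% intervals of counting error alone.

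p53 is a transcription factor that is kept low by the ubiquitin ligase Mdm2 and accumulates after DNA damage and other stress. It binds a pair of decamers and switches on genes for cell cycle arrest, such as Cdkn1a (p21, an inhibitor of cyclin-dependent kinases), genes for cell death, such as Bax, and its own inhibitor Mdm2. Cdkn1a also answers to growth factor, stress and steroid signals that do not need p53, and in muscle it is known for the withdrawal of differentiating myoblasts from the cell cycle.

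The promoter of Cdkn1a is shown because this gene is the usual readout of the pathway and the member farthest from equal levels between the libraries. Cdkn1a (ENSMUSG00000023067) lies on GRCm38 chr17:29090976-29100727, plus strand, and RefSeq (GRCm38.p6) gives it a pair of start sites 2790 bases apart. The 250 bases before each start are printed 5′ to 3′, with matches to the p53 decamer, and a pair of decamers with at most 1 letter off over both, in capitals.

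Cdkn1a upstream start, chr17:29090729-29090978, plus strand: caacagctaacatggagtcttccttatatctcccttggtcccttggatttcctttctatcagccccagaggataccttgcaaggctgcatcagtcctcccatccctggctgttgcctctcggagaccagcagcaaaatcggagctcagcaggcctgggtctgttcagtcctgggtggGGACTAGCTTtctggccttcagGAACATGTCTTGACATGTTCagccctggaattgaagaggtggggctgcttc

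Cdkn1a downstream start, chr17:29093519-29093768, plus strand: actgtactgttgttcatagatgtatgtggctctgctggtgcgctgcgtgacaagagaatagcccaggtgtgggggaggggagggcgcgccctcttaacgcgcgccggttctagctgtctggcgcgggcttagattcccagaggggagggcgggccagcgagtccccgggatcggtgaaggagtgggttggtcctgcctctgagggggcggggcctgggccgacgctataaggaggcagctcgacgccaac

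Before the upstream start, 2 decamers with no spacer, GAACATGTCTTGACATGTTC, lay 51 to 32 bases upstream with 1 letter off the p53 consensus. A second pair with 0 letters off, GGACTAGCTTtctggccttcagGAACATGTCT, lay 73 to 42 bases upstream; its decamers stand 12 bases apart, and it shares GAACATGTCT with the other pair. The window before the downstream start held no such pair. It held 2 GC boxes (GGGCGG, either strand) and the letters TATAA 25 bases upstream of the start. A pair of decamers with at most 1 letter off and a spacer of up to 13 bases was found in 1.09% of all 32851 promoter windows (250 bases before to 50 after a start), and one with no spacer in 0.0883%. GGGCGG was in 35.7% and TATAA, either strand, in 24.9% of windows. Such a match is a description of letters and not of binding, and 3′ tags do not show from which start a transcript came.

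On the same build, Mdm2 lies on chr10:117688875-117710758 (minus strand), Ccng1 on chr11:40748552-40755311 (minus), Trp53inp1 on chr4:11156431-11174379 (plus), Phlda3 on chr1:135766119-135769136 (plus) and Bax on chr7:45461697-45466898 (minus). Promoter windows were found for 5 of the 6 members. Ccng1 had a decamer pair, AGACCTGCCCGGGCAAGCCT, 195 to 176 bases upstream of its start. Bax had the pair AAGCATATCCcAGGCAAGCTT, with a spacer of 1 base in lower case, 212 to 192 bases upstream. Each was 1 letter off. Mdm2 had the single decamer GAACTTGCCT 186 to 177 bases upstream, and the Phlda3 window had none. The AP-1 site TGANTCA, at which Fos and Jun proteins bind, is in 7.81% of all windows (either strand), and the CArG box in 1.63%. Both were in no window of these members, which says only that these letters are absent there.

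Across the chosen cells, Cdkn1a was far lower in the knockout library than in the wild type library, while each of the other 5 targets, summed over all chosen cells, lay within 1.5-fold of its wild type level. Phlda3 passed 1.5-fold, on the higher side, as a median over clusters that both libraries shared. Cdkn1a had 103 CPM (UMIs in every 1000000; 98.1 to 107) in knockout cells, against 389 CPM (379 to 399) in wild type cells, from sums of 1966 and 5611 UMIs. The ratio of knockout over wild type was -1.92 on the log2 scale (-2.00 to -1.85), a level 3.79-fold lower. The other 5 targets summed to 233 CPM in knockout and 221 CPM in wild type cells, with a log2 ratio of 0.08 (0.01 to 0.14). Cdkn1a gave 30.6% (29.5 to 31.7) of the UMIs of the 6 genes in knockout cells and 63.8% (62.8 to 64.8) in wild type cells.

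Described genes were those with a mean of at least 20 CPM over both libraries, 5933 in all, and a gene counted as apart where its levels differed 1.5-fold or more. All 6 members passed the floor. Of the 6, 1 was at least 1.5-fold lower in the knockout, where 3.59% of all described genes were, and 0 were at least 1.5-fold higher, where 5.07% were. At 2-fold the same single gene, Cdkn1a, was lower, where 1.01% of described genes were, and 0 of 6 were higher, where 1.77% were. The median described gene had a log2 ratio of 0.05. By its ratio Cdkn1a was the gene of order 14 from the bottom of the 5933, and of order 7 among the 1408 genes of at least 100 CPM in wild type cells. The members were picked with this contrast known, so nothing is read from these counts.

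Mdm2, which marks p53 for degradation and is itself a p53 target, had 25.1 CPM (22.9 to 27.5) in knockout cells and 25.5 CPM (22.9 to 28.2) in wild type cells. Its log2 ratio was -0.02 (-0.22 to 0.18), so that a difference of 1.5-fold lies outside its counting interval. Ccng1, which encodes cyclin G1 and recruits a phosphatase to Mdm2, had 30.3 CPM (27.9 to 32.9) in knockout cells and 32.8 CPM (29.9 to 35.9) in wild type cells, a log2 ratio of -0.11 (-0.29 to 0.06). Both genes of the Mdm2 feedback loop therefore had intervals that include equal levels.

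Trp53inp1, a nuclear protein that promotes p53-dependent arrest and death, had 19.1 CPM (17.2 to 21.2) in knockout cells and 22.7 CPM (20.3 to 25.3) in wild type cells. Its log2 ratio was -0.24 (-0.46 to -0.02). Bax, which permeabilises the outer mitochondrial membrane in apoptosis, had 71.5 CPM (67.7 to 75.4) in knockout cells and 73.8 CPM (69.4 to 78.4) in wild type cells, a log2 ratio of -0.05 (-0.16 to 0.07). The annotation places the gene Gm45808 over Bax on the same strand. Gm45808 had 0 UMIs in both libraries, and no source used here says how reads that fit both genes were counted, so the Bax level is uncertain to that extent.

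Phlda3, a pleckstrin homology domain protein that restrains Akt, was the one member with a higher knockout level whose interval excludes equality. It had 86.7 CPM (82.6 to 91.0) in knockout cells and 66.2 CPM (62.1 to 70.6) in wild type cells, with a log2 ratio of 0.39 (0.27 to 0.50). Of all described genes, 88.6% had a lower ratio than Phlda3.

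**Figure D1:**
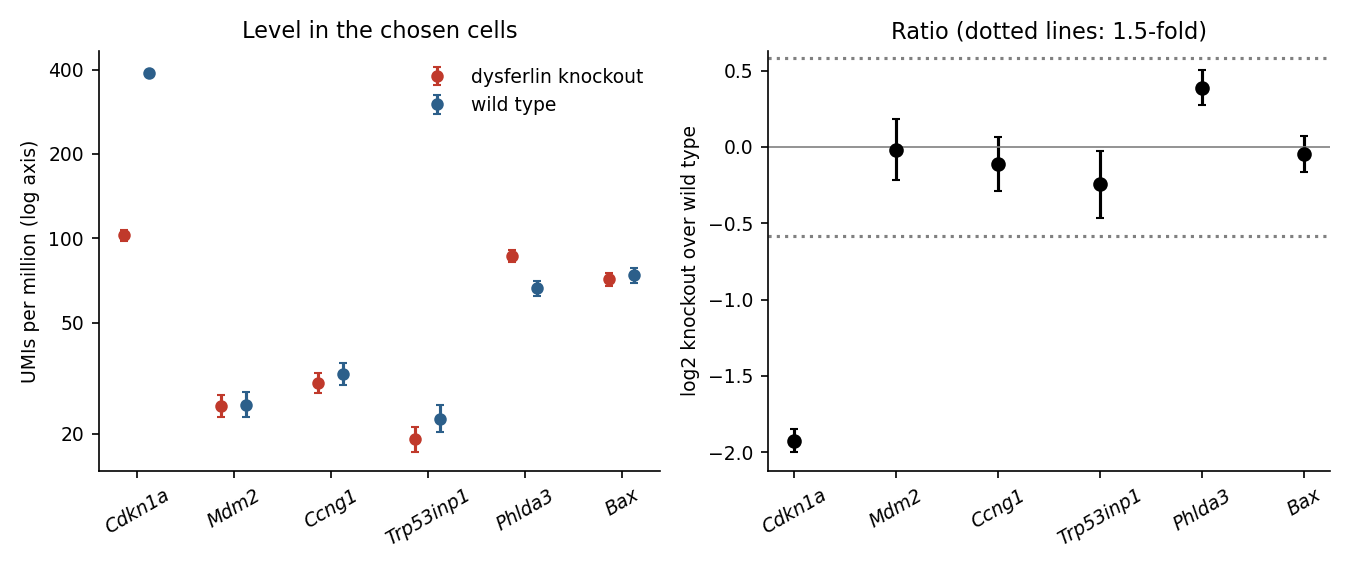
Left: CPM (log axis) of the 6 p53 targets summed over 1435 dysferlin knockout cells (red, left of each pair) and 1533 wild type cells (blue). Right: log2 ratio of knockout over wild type, with dotted lines at 1.5-fold. Bars are 95% counting intervals. Cdkn1a, at -1.92, is the one gene past 1.5-fold; Phlda3, at 0.39, lies above 0.

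The Pdgfra threshold had values on either side as follows. Among barcodes that passed the other filters, Cdkn1a had 105 CPM in 149 knockout cells and 432 CPM in 264 wild type cells with 0 Pdgfra UMIs, which were not chosen. With 1 Pdgfra UMI it had 108 CPM in 170 knockout cells and 370 CPM in 263 wild type cells, which were.

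The libraries bore on these values as follows. Median depth was 12717 UMIs a cell in the knockout and 9177 in the wild type library, over totals of 19170199 and 14420247 UMIs. The libraries shared 13 barcodes, 2 of them among chosen cells. Each of the 10 FAP markers had a UMI in 93.7% or more of knockout and 94.98% or more of wild type cells, as the labelled cell type requires. Pdgfra is among these markers, and its presence in every chosen cell was fixed by the filter. The 6 macrophage or monocyte markers summed to 67.2 CPM in knockout and 10.8 CPM in wild type cells, the 6 endothelial markers to 19.8 and 20.5 CPM, and the 4 satellite cell markers to 0 and 0.208 CPM; their part in the results was not tested. Dysf itself had 14 knockout and 9 wild type UMIs (log2 ratio 0.23, -1.08 to 1.62), too few to check the genotype, and a 3′ tag would not show an upstream disruption.

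Cell by cell, Cdkn1a had no UMI in most knockout cells and many in a few, while most wild type cells held at least 1. At least 1 Cdkn1a UMI was found in 40.3% of knockout cells (37.8 to 42.9) and 76.1% of wild type cells (73.8 to 78.2). With every cell thinned to 4000 UMIs, which left 1318 knockout and 1323 wild type cells and dropped 117 and 210 shallower ones, the expected shares were 24.2% and 63.5%. In 1 such draw, 75.5% of knockout and 35.1% of wild type cells held 0 Cdkn1a UMIs, and 1.29% and 7.94% held 5 or more. No cell type known to lack Cdkn1a was present in number, so the part of free RNA in these shares could not be read off.

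The top 10% of cells, 144 knockout and 154 wild type cells, held 60.6% of all Cdkn1a UMIs in the knockout and 36.4% in the wild type library. The median cell stood at 0 CPM in the knockout and 286 CPM in the wild type library, and the cell of order 1 at 2560 and 3742 CPM. The variance of thinned Cdkn1a counts over their mean, which is 1 for pure counting noise, was 2.75 in knockout and 2.41 in wild type cells. It exceeded that of 98.2% of the 732 genes of like mean (within 25%) in the knockout and 82.1% of 151 such genes in the wild type library.

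The other targets behaved otherwise. The ratio of variance to mean was 1.01 in knockout and 1.00 in wild type cells for Mdm2, 1.02 and 1.06 for Ccng1, and 0.991 and 1.03 for Bax, values near pure counting noise. Trp53inp1 had 1.15 in knockout and 1.04 in wild type cells, above 91.2% of 1819 and 62.7% of 1786 genes of like mean. Phlda3, at 1.51 and 1.34, was above 95.9% of genes of like mean in knockout and 95.1% in wild type cells. Thus Cdkn1a and Phlda3 varied between cells beyond counting noise, and for Mdm2, Ccng1 and Bax no such variation was detectable at this depth. Trp53inp1 lay between, high among genes of like mean in the knockout alone. Because the members differ in mean count, their ratios were read beside genes of like mean and do not order the members.

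**Figure D2:**
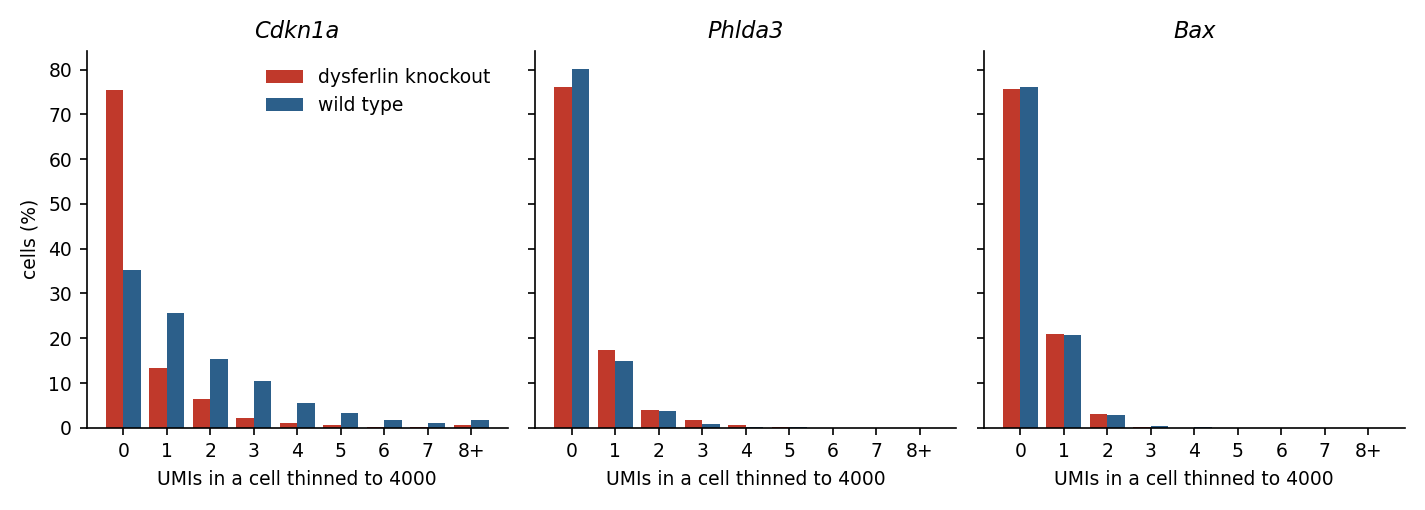
Share of cells (%) by UMI count of Cdkn1a, Phlda3 and Bax in cells thinned to 4000 UMIs, dysferlin knockout (red, left bar, 1318 cells) beside wild type (blue, 1323 cells). For Cdkn1a 75.5% of knockout and 35.1% of wild type cells are at 0; for Bax the bars of both libraries nearly coincide.

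Whether Cdkn1a went with the other targets was asked within each library, over cells. On thinned counts, its Spearman correlation with the other members ran from -0.03 (Mdm2) to 0.07 (Bax) over 1318 knockout cells, and from 0.01 (Bax) to 0.06 (Phlda3) over 1323 wild type cells. With the 5 summed it was 0.07 in each library. The 10 pairs among the other 5 had a median of 0.01 in knockout and 0.00 in wild type cells. These are sparse counts from cells of 1 library each, in which correlations of this size are no finding, and Mdm2 had a thinned UMI in just 9.94% of knockout and 10.4% of wild type cells.

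Genes were then ranked by their correlation with Cdkn1a. Those seen in few cells could not enter, among them Mdm2, Ccng1, Trp53inp1 and Phlda3. Of the 39 wider p53 targets other than Btg2, 2 entered, so the ranking does not compare p53 targets as a group with other genes. Among 2338 genes seen in at least 20% of thinned cells of each library, the 10 highest by the mean of both correlations were Fos, Egr1, Junb, Jun, Zfp36, Atf3, Jund, Btg2, Dusp1 and Gsn. Of these, 8 are on the list of 18 immediate early genes, which are switched on within minutes of a stimulus. Of all 2338 genes compared, 12 are on that list. Btg2, an antiproliferative gene, is a p53 target and an early response gene alike, and Gsn encodes the actin-severing protein gelsolin. Fos had correlations of 0.237 in knockout and 0.323 in wild type cells, Egr1 of 0.238 and 0.322, Btg2 of 0.157 and 0.251, and Gsn of 0.226 and 0.153. The 5 lowest were the matrix genes Col3a1 (-0.261 in knockout, -0.182 in wild type cells), Sparc, Col1a1 and Col1a2, and the galectin gene Lgals1.

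Summed over the whole list, immediate early genes had a correlation with Cdkn1a of 0.30 in knockout and 0.36 in wild type cells. The 14 glucocorticoid-induced genes had 0.11 and 0.31, and the 39 wider p53 targets other than Btg2 had 0.05 and 0.10. These sums were not compared at like counts. Thinned cells with 0 Cdkn1a UMIs had means of 23.4 (knockout) and 32.1 (wild type) immediate early UMIs, but 3.57 and 3.62 of the wider p53 targets. Beside the 2338 single genes, the wider p53 sum lay above 87.5% in knockout and 97.5% in wild type cells. The glucocorticoid sum lay above 97.3% and 99.9%, and the immediate early sum above 100% in both. The cells of a library share its preparation, and the part of that in these values was not tested.

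**Figure D3:**
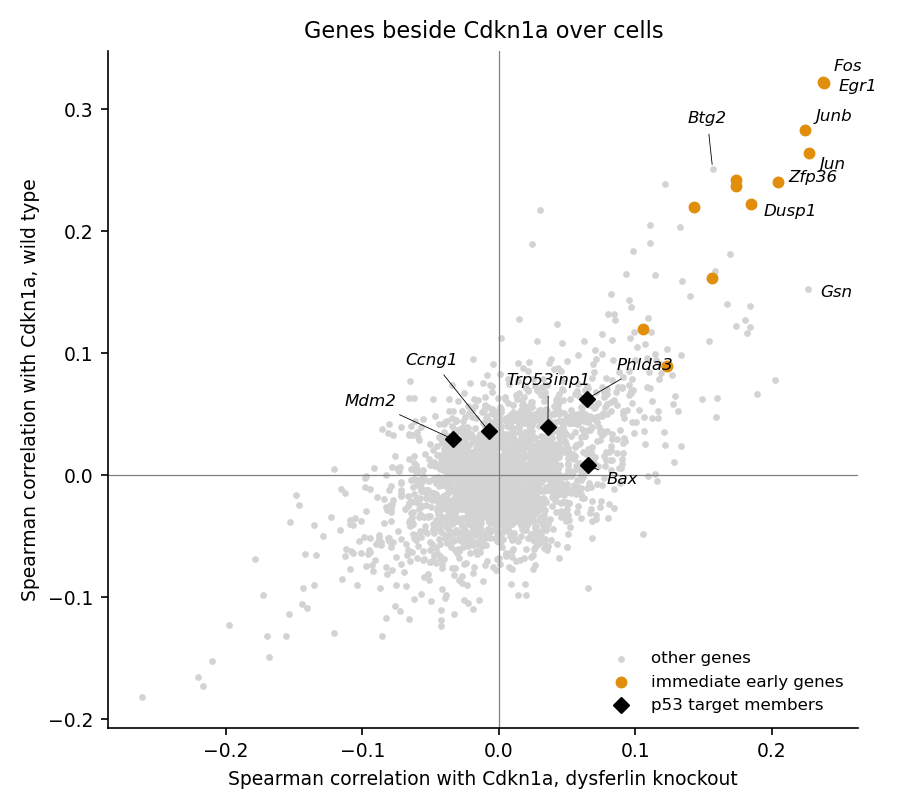
Spearman correlation with Cdkn1a over dysferlin knockout cells (x axis) and wild type cells (y axis) for 2338 genes (grey), with immediate early genes in orange and the other 5 p53 targets as black diamonds. The targets lie between -0.03 and 0.07 on both axes; Fos lies at 0.237 and 0.323.

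Cells were then grouped by their Cdkn1a level at full depth, with cells under 4000 UMIs left out. In knockout cells the other 5 targets summed to 215 CPM (206 to 224) in 766 cells with 0 Cdkn1a UMIs, 235 CPM (223 to 248) in 368 cells up to 250 CPM, 281 CPM (259 to 304) in 169 cells up to 1000 CPM and 660 CPM (539 to 801) in 15 cells above 1000 CPM. In wild type cells the same groups had 200 CPM (183 to 218) in 268 cells, 228 CPM (214 to 244) in 340, 215 CPM (204 to 227) in 588 and 276 CPM (247 to 309) in 127. At full depth the other targets thus stood highest in the cells richest in Cdkn1a in both libraries, but the wild type order rested on few cells. Without the 2 of those 127 wild type cells with most other target UMIs, the group's interval overlapped that of wild type cells up to 250 CPM. It still lay above that of wild type cells with 0 Cdkn1a UMIs. The size of the step in the knockout rests on 15 cells and depended on how cells were grouped. With groups made on counts thinned to 4000 UMIs, knockout cells with 5 or more Cdkn1a UMIs had a mean of 2.59 other target UMIs, against 0.864 in knockout cells with 0, in the first of 5 draws. In the second draw these means were 1.37 (0.894 to 2.01) and 0.921 (0.862 to 0.983), with overlapping intervals. In each of the other draws the intervals of these knockout groups did not overlap. In wild type cells the means were 1.06 (0.870 to 1.27) and 0.781 (0.702 to 0.865) in the first draw and 1.10 (0.913 to 1.32) and 0.853 (0.774 to 0.938) in the second. The intervals of these wild type groups were apart in the first draw alone and overlapped in each of the others.

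Of those 15 knockout cells, 2 held the most UMIs of the other targets. One, with 17 Cdkn1a UMIs among 13684, had 10 of Phlda3, 7 of Trp53inp1, 5 of Bax, 1 of Ccng1 and 0 of Mdm2. The other, with 20 Cdkn1a UMIs among 17889, had 6 of Trp53inp1, 5 of Phlda3 and 5 of Bax. Without both, the remaining 13 cells had 506 CPM (389 to 648). In the wild type, a cell with 27 Cdkn1a UMIs among 13969 had 9 of Phlda3, 6 of Trp53inp1 and 3 of Bax. In 21 of the 127 wild type cells above 1000 CPM of Cdkn1a, or 16.5%, no UMI of any other target was counted. Over all 1323 wild type cells of these groups it was 227, or 17.2%, and over the 268 with 0 Cdkn1a UMIs it was 65, or 24.3%. In the knockout it was 1 of 15 cells above 1000 CPM, or 6.67%, and 105 of 766 cells with 0 Cdkn1a UMIs, or 13.7%.

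Member by member, in knockout cells above 1000 CPM of Cdkn1a, Bax had 250 CPM (178 to 342), against 68.9 CPM (64.0 to 74.1) in knockout cells with 0 Cdkn1a UMIs. Phlda3 had 237 CPM (167 to 327) against 72.4 CPM (67.3 to 77.7) in these groups, and Trp53inp1 had 103 CPM (58.6 to 167) against 18.8 CPM (16.2 to 21.6). The Trp53inp1 level rested on the 2 cells named above, which held 7 and 6 of its 16 UMIs in those knockout cells. They held 10 and 5 of the 37 Phlda3 UMIs there, and 5 and 5 of the 39 Bax UMIs. Mdm2 had 2 UMIs in those 15 cells. In wild type cells Trp53inp1 had 42.9 CPM (31.7 to 56.7) against 17.3 CPM (12.7 to 23.1), and Ccng1 had 47.2 CPM (35.5 to 61.6) against 22.6 CPM (17.2 to 29.0). Phlda3 had 96.2 CPM (79.1 to 116) against 67.7 CPM (58.2 to 78.3) there, and the wild type intervals of Bax and Mdm2 overlapped between these groups.

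Immediate early genes followed Cdkn1a over the whole range. They summed to 4866 CPM in knockout cells and 5969 CPM in wild type cells with 0 Cdkn1a UMIs, and to 20232 CPM in knockout and 18818 CPM in wild type cells above 1000 CPM. The wider p53 targets without Btg2 were also higher in each successive group, with 906, 957, 1028 and 1493 CPM in knockout cells and 914, 945, 983 and 1095 CPM in wild type cells.

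**Figure D4:**
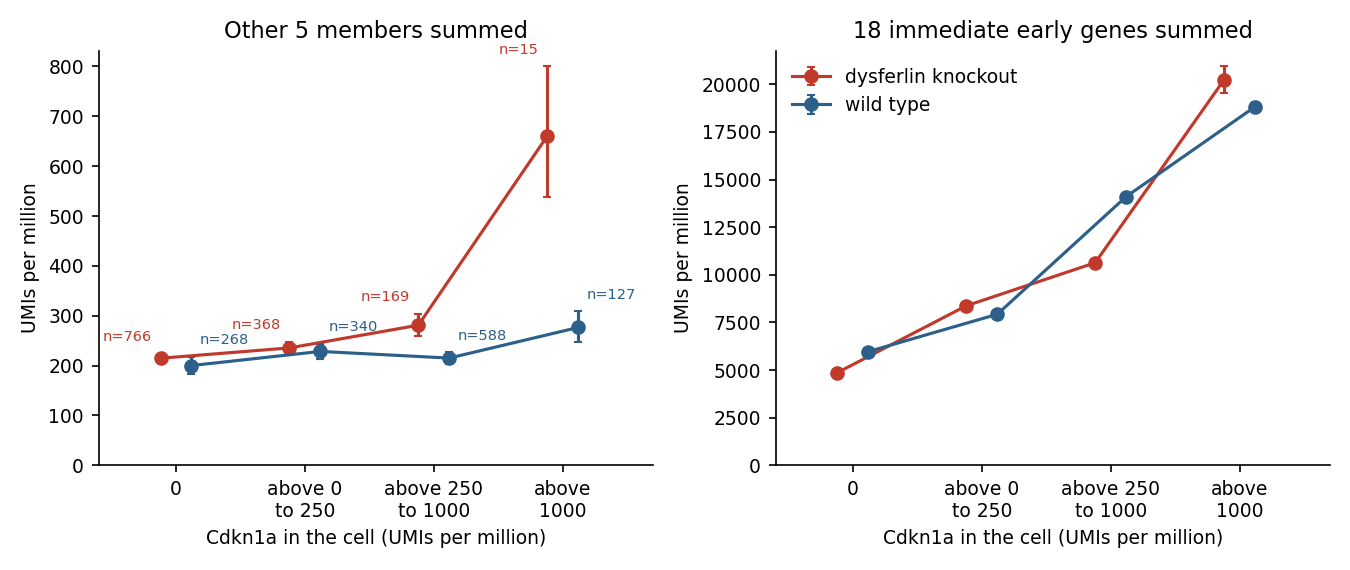
CPM of the other 5 p53 targets (left) and of 18 immediate early genes (right) in cells grouped by their Cdkn1a level, dysferlin knockout (red) and wild type (blue); bars are 95% counting intervals and n is the number of cells. The other targets lie between 200 and 281 except in the 15 knockout cells above 1000, at 660; the 127 wild type cells above 1000 lie at 276.

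Turned round, with cells of each library sorted into 4 groups of like size by their immediate early level, Cdkn1a had 23.3, 81.6, 101 and 207 CPM from the lowest to the highest group in the knockout, and 172, 328, 462 and 611 CPM in the wild type. The intervals of neighbouring groups did not overlap in either library. Phlda3 had 72.0 CPM in the lowest and 97.7 CPM in the highest group of knockout cells, and 67.2 CPM in the lowest and 49.8 CPM in the highest group of wild type cells. Trp53inp1 had 23.3 CPM (19.2 to 28.1) in the lowest and 12.8 CPM (9.77 to 16.6) in the highest group of knockout cells. Bax had 84.5 CPM (75.5 to 94.2) in the lowest and 64.9 CPM (56.6 to 74.0) in the highest group of wild type cells. For Mdm2 and Ccng1 in both libraries, Bax in the knockout and Trp53inp1 in the wild type, the intervals of the lowest and highest group overlapped. The immediate early genes themselves were lower in the knockout, with 6784 CPM in knockout and 11273 CPM in wild type cells. Within 5 common ranges of the immediate early level, Cdkn1a kept a lower knockout level in each, with log2 ratios of -2.28 below 2000 CPM, -1.66, -1.65 and -1.61 in the ranges up to 20000 CPM, and -0.92 (-1.09 to -0.76) above it. The other 5 targets summed had ratios from -0.06 to 0.31 in these ranges.

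The cells were also clustered without the members and all listed genes, giving 13 clusters, of which 6 had at least 25 cells of each library. Cdkn1a was lower in the knockout in 6 of 6 shared clusters, as 6.33% of 5904 described genes were, and at least 1.5-fold lower in 6 of 6, as 0.39% were. Its median log2 ratio there was -0.96, between -1.91 and -0.61, nearer to 0 than the -1.92 over all cells. Phlda3 was higher in 6 of 6, as 13.9% of described genes were, with a median of 0.89 between 0.50 and 1.11; 4.34% of described genes had such a median of at least 1.5-fold higher. Mdm2, Ccng1, Trp53inp1 and Bax were higher in some shared clusters and lower in others, with medians from -0.04 to 0.14. With broader clusters (5 shared) Cdkn1a was lower in 5 of 5, but Phlda3 was higher in 3 and lower in 2; with finer ones (9 shared) Cdkn1a was lower and Phlda3 higher in 9 of 9.

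By cluster, knockout cells had 262 CPM of Cdkn1a in cluster 5 (led by Dkk2 and Igfbp3), 242 CPM in cluster 8 (Stmn4, Dact2), 239 CPM in cluster 6 (Clu, Cpe, Klf5), 232 CPM in cluster 0 (Bmp2, Hsd11b1), 137 CPM in cluster 4 (Gdf10, Fmo2) and 55.6 CPM in cluster 7 (C1qtnf3, Cpxm1). The first 4 had overlapping intervals, and clusters 4 and 7 each lay below them. Wild type cells had 496 CPM in cluster 6, 475 CPM in cluster 5, 415 CPM in cluster 0, 393 CPM in cluster 4, 369 CPM in cluster 8 and 209 CPM in cluster 7. Neighbours in this order had overlapping intervals down to cluster 8, except clusters 5 and 0, and cluster 7 lay below all of them. Cluster 10, led by the matrix genes Cthrc1, Tnc and Postn, had 58.7 CPM (19.1 to 137) in 5 knockout cells and 44.0 CPM (30.4 to 61.4) in 49 wild type cells.

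Different clusters held most cells of each library. Cluster 7 held 40.3% of knockout cells and 1.83% of wild type cells. Cluster 3, led by the interferon-induced genes Cxcl9 and Isg15 and by Ccl2, held 12.1% and 0.848%, and had 52.1 CPM (43.2 to 62.3) of Cdkn1a in its knockout cells. Cluster 1 (Cmah, Smpd3) held 8.50% and 0.783%, with 64.7 CPM (53.6 to 77.4) in knockout cells. The knockout cells lowest in Cdkn1a thus lay mostly in clusters with few or no wild type cells (cluster 10, with 5 knockout cells, was the exception), and a cluster held by 1 library can stand for that library. Cluster 9, led by the mast cell genes Cma1 and Mcpt4, had 44 knockout and 0 wild type cells, and cluster 12, led by haemoglobin and endothelial genes, had 2 and 38. The sort gated doublets out by pulse width, which does not act on cells caught in 1 droplet; no doublet caller was run, and the part of doublets in these clusters was not tested. Without these clusters, left out after seeing the data, no member's ratio left its counting interval.

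Phlda3 differed widely between clusters in both libraries. It had 315 CPM in knockout and 165 CPM in wild type cells of cluster 6, but 11.3 CPM in the knockout cells of cluster 1, where 21 UMIs were counted in 122 cells. In cluster 0 it had 73.0 CPM in knockout and 40.8 CPM in wild type cells, and in cluster 8 it had 78.2 and 36.3 CPM in these groups.

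**Figure D5:**
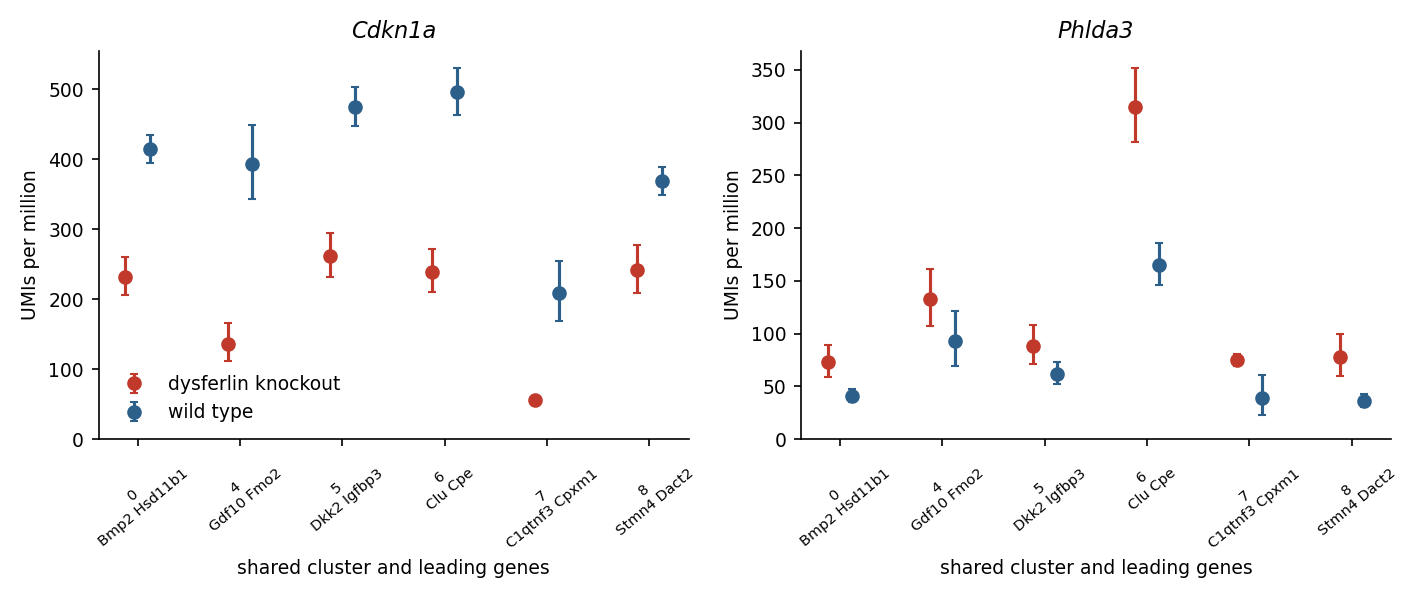
CPM of Cdkn1a (left) and Phlda3 (right) in the 6 clusters shared by both libraries, dysferlin knockout (red, left of each pair) and wild type (blue), with 95% counting intervals. Cdkn1a is lower and Phlda3 higher in the knockout in 6 of 6 at this resolution; with broader clusters Phlda3 is lower in 2 of 5.

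The rest of the pathway was described from lists, by counts beside the 3.59% and 5.07% of all described genes and their median of 0.05. Of 40 wider p53 targets, 16 were described, with 1 higher, 1 lower and a median log2 ratio of -0.14. Tap1, a peptide transporter of antigen presentation that interferon also induces, was higher, with 30.6 CPM in knockout and 13.9 CPM in wild type cells (1.14, 0.91 to 1.38). Btg2 was lower, with 174 CPM in knockout and 382 CPM in wild type cells (-1.14, -1.20 to -1.07). Under the floor, further listed targets were at least 1.5-fold apart with intervals that exclude equality. Bbc3 (log2 ratio -0.96), Ppm1d (-0.89) and Plk2 (-0.83) were lower in the knockout. Ckap2 (2.87), Psrc1 (2.02), Gtse1 (2.00), Tigar (1.50), Tnfrsf10b (1.44), Sesn2 (1.23) and Eda2r (0.60) were higher. The first 3 of these were seen in few knockout cells. Ckap2 had 146 UMIs in 35 cells, with up to 36 in a cell, Psrc1 had 27 in 18 cells and Gtse1 had 16 in 11. The share of all genes under the floor that were as far apart was not taken. Genes named under the floor, here and below, thus have no background beside them. Of the 19 genes of p53 and its regulators, 7 were described and 0 of these were 1.5-fold apart, with a median of 0.07. Chek2, under the floor, had 66 knockout and 13 wild type UMIs (1.93, 1.06 to 2.92). Trp53, the gene of p53, had 48.5 CPM in knockout and 55.1 CPM in wild type cells (-0.18, -0.32 to -0.05), which says nothing of its protein, the level at which p53 is mostly controlled.

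Among the 7 inhibitors of cyclin-dependent kinases, 4 were described, and of these 4 Cdkn1a was the only one 1.5-fold apart. Cdkn1b (p27) had 70.2 CPM in knockout and 63.7 CPM in wild type cells, a log2 ratio of 0.14 (0.02 to 0.26). Cdkn1c (p57) had 249 CPM in knockout and 313 CPM in wild type cells, a log2 ratio of -0.33 (-0.39 to -0.27). Cdkn2a, a marker of senescence and the source of the Mdm2 inhibitor Arf, had 5 knockout and 2 wild type UMIs. Cdkn2c (p18) and Cdkn2b (p15), also under the floor, stood further apart. Cdkn2c had 13.2 CPM (254 UMIs) in knockout and 3.54 CPM (51 UMIs) in wild type cells, a log2 ratio of 1.91 (1.47 to 2.37). Cdkn2b had 0.939 CPM (18 UMIs) in knockout and 2.01 CPM (29 UMIs) in wild type cells, a log2 ratio of -1.10 (-2.03 to -0.20). Of 14 G1 cyclins, kinases and pocket proteins, 7 were described and 0 were 1.5-fold apart, with a median of 0.19.

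Of 20 cell cycle genes, 1 passed the floor, the chromatin gene Hmgb2, with 52.1 CPM in knockout and 34.7 CPM in wild type cells (0.59, 0.43 to 0.75); the 20 summed to 216 CPM in knockout and 78.5 CPM in wild type cells. Cells with at least 3 UMIs of the proliferation genes Mki67 and Top2a numbered 20 in the knockout and 2 in the wild type library. In these 20 cells Cdkn1a had 94.2 CPM (68.7 to 126), against 103 CPM (98.2 to 107) in the other knockout cells. These intervals overlap.

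Of 16 BCL2 family genes, 4 were described, with 0 of these higher and the survival gene Bcl2 lower, at 26.3 CPM in knockout and 42.4 CPM in wild type cells (-0.69, -0.86 to -0.51). Among those under the floor, Bak1 was higher in the knockout (0.68, 0.43 to 0.93). Bok (-1.09, -1.38 to -0.80) and Bcl2l1 (-0.64, -0.91 to -0.38), also under it, were lower. Of 13 secreted factors linked to senescence, 9 were described, with 3 higher and 1 lower. Ccl2, a monocyte chemokine, had 240 CPM in knockout and 35.5 CPM in wild type cells, Mmp3, a matrix protease, had 376 and 62.5 CPM, and its inhibitor Timp1 had 382 and 78.0 CPM. Cxcl1, a neutrophil chemokine, had 82.8 CPM in knockout and 149 CPM in wild type cells. All 4 are also inducible by inflammatory signals.

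The lists with most members 1.5-fold lower were those outside the p53 pathway. Of 14 glucocorticoid-induced genes, 12 were described, with 7 lower, 1 (Mt2) higher and a median of -0.87. Zbtb16 had 80.9 CPM in knockout and 387 CPM in wild type cells (-2.26), Tsc22d3 214 and 830 CPM (-1.95), Ddit4 42.6 and 159 CPM (-1.90) and Fkbp5 34.6 and 110 CPM (-1.67); Klf9 had 413 and 965 CPM, Errfi1 275 and 442 CPM, and Cebpd 882 and 1834 CPM. Mt2, a metallothionein gene, had 1206 CPM in knockout and 753 CPM in wild type cells. Of 18 immediate early genes, 16 were described, with 11 lower, 0 higher and a median of -0.75, among them Ier2 with 218 CPM in knockout and 533 CPM in wild type cells (-1.29) and Jund with 618 and 1353 CPM (-1.13). The other 9 had log2 ratios between -1.24 (Klf2) and -0.70 (Fos). Cdkn1a, at -1.92, lay below all 11.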

How the data were processed

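The authors deposited raw UMI counts, unnormalised, as 1 matrix of genes by barcodes for each group, from 10x Genomics 3′ libraries (version 3 kit, per the labels' protocols). Cell Ranger 3.0.0, Seurat (no role given) and mm10 are named in the submitters' processing notes, and the file headers give software version 3.0.2. The members and gene lists were chosen with earlier results of these data known. Named genes are the members, list genes at least 1.5-fold apart, and the 10 highest and 5 lowest correlations with Cdkn1a; other list genes, Pdgfra and Dysf were named after their values were seen. UMIs were summed over chosen cells (exact Poisson intervals; conditional binomial intervals for ratios; Clopper-Pearson for shares). Cells were thinned to 4000 UMIs without replacement. Clusters came from scanpy 1.11.5 (2000 variable genes, 30 components, 15 neighbours, Leiden resolution 0.8). Coordinates are from GENCODE (GRCm38) and promoters from RefSeq (GRCm38.p6). Code was tested on simulated data.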

Additional observations from a re-analysis of the deposited data

How the results depend on the processing

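Cdkn1a stayed lower in the knockout under all 11 alternatives, Phlda3 higher, and no member other than these 2 came 1.5-fold apart in any of them. The log2 ratio of Phlda3 was between 0.22 (without the 25% of cells of highest immediate early level) and 0.89 (median over shared clusters, past 1.5-fold). The log2 ratio of Cdkn1a was -1.80 with cells thinned to 4000 UMIs, -2.28 without the 5% of cells of highest level, -2.20 without the 25% of cells of highest immediate early level, and -0.96 as a median over shared clusters (-1.08 at resolution 0.4). The other 5 members summed had 0.24 as such a median. Genes at least 1.5-fold higher and lower numbered 634 and 425 of 9869 at a floor of 5 CPM, and 150 and 125 of 2940 at 50 CPM, against 301 and 213 of 5933. The variance over mean of Cdkn1a in knockout cells was 4.26 with cells thinned to 8000 UMIs. The Spearman correlation of Cdkn1a with the other 5 summed ran from 0.03 to 0.11 in knockout and from 0.03 to 0.08 in wild type cells over 4 alternatives. The cause of these shifts was not tested. Groups by thinned Cdkn1a counts depended on the draw: over 5 draws, knockout cells with 5 or more Cdkn1a UMIs had a mean of 1.37 to 2.59 UMIs of the other 5 members, and those with 0 had 0.849 to 0.921. Full depth was used, a choice made after seeing the data, as were the immediate early ranges, the split by Mki67 and Top2a and the cells left out. No paired analysis was possible because each group has 1 pooled matrix. With 1 library a group, nothing here measures the spread between animals.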
